A study of Bombyx mori with 12 samples.

Results

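MLC-2 (BGIBMGA002259), a myosin regulatory light chain, and A1 (BGIBMGA013945), a muscle-type actin, are the 2 genes described here, of 15745 listed in an expression table of silkworm ovaries. They were chosen by ID, as candidate markers of the muscle that wraps the ovarioles, the egg-forming tubes of an insect ovary. The table covers 12 ovary samples of Bombyx mori, the domestic silkworm, with 3 samples in each of 4 groups: animals labelled WT and animals labelled TBH, each sampled as P2 and as P4 pupae. The series presents a genetic silkworm model of hyperproteinemia, an excess of protein in the blood, and asks what it does to female reproduction. The labels leave the abbreviation TBH unexplained and give no further allele, agent or age for either line. The labels speak of 5 female pupae and n = 3 without saying if pupae were pooled, so each p-value refers to the spread among samples, which may be technical.

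Muscle contracts when myosin heads pull on actin filaments. Each myosin heavy chain carries light chains on its neck, of which the regulatory one can tune the contraction. Tropomyosin and the troponins lie along the actin filament and switch it on when calcium rises. In insects, actin genes are expressed in sets, some in muscle and some in the cytoplasm of every cell. A sheath of muscle surrounds the insect ovary, and its contractions move eggs along the ovariole.

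The table gives normalized expression in a unit it does not name, so depth in reads is unknown, no counting interval can be given, and levels of different genes are not compared. Each sample's column added up to between 468559 and 664134. Cytosolic ribosomal protein genes took 22.9%, 37.8% and 27.7% of them in the WT P2 samples, the widest range of any group, 30.8% to 32.5% in TBH P2 and 33.7% to 36.3% in WT P4. They took 34.2% and 35.9% in TBH P4 replicates 1 and 2 and 23.9% in replicate 3. WT P2 replicates 1 and 2 and TBH P4 replicate 3 thus stood apart. The eggshell gene VMP23, a vitelline membrane protein made by follicle cells, was present in every sample, at 3.16 to 13.4 in the P2 samples and 401 to 1210 in the P4 samples. The germ line genes SIWI and NANOS-O were listed at 0 in all 12. An exact 0 may be a failed estimate, since a subunit of the Arp2/3 complex (BGIBMGA005922), which nucleates actin filaments in most cells, was also at 0 throughout.

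MLC-2 was most abundant in WT ovaries at P4. It stood at 103, 291 and 173 in the 3 WT samples at P2, and at 181, 214 and 176 in the 3 TBH samples at that stage. At P4 it stood at 663, 791 and 622 in WT and at 412, 298 and 217 in TBH. All 3 WT P4 samples lay above all other 9 samples, and the TBH P4 samples lay between the WT P4 and the TBH P2 samples, the lowest of them only just above the highest TBH P2 sample. In the order of group means, WT P2 (189 ± 95.3, SD, n = 3 in each group) and TBH P2 (190.4 ± 20.8) did not separate, TBH P4 (309 ± 97.9) overlapped WT P2, and WT P4 (692 ± 88.1) overlapped no group.

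A1 showed the same order at P4 with smaller steps. Its values were 248, 348 and 553 in WT and 289.8, 401 and 281 in TBH at P2, and 884, 1283 and 851 in WT and 788, 587 and 502 in TBH at P4. The WT P4 samples were again above all others, and every P4 sample of a line was above every P2 sample of that line. TBH P2 (324 ± 66.8, n = 3 in each group) and WT P2 (383 ± 156) overlapped, WT P2 and TBH P4 (626 ± 147) overlapped through WT P2 replicate 3, and WT P4 (1006 ± 240.4) stood alone. Within WT P2 the genes ranked the samples differently: replicate 2 was the highest for MLC-2 and replicate 3 for A1, while replicate 1, with the lowest ribosomal share, was the lowest for both. Within TBH P4, replicate 3, with the lowest ribosomal share, was also the lowest for both genes. The part of these libraries in the results was not tested beyond the fits without them given below.

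**Figure D1:**
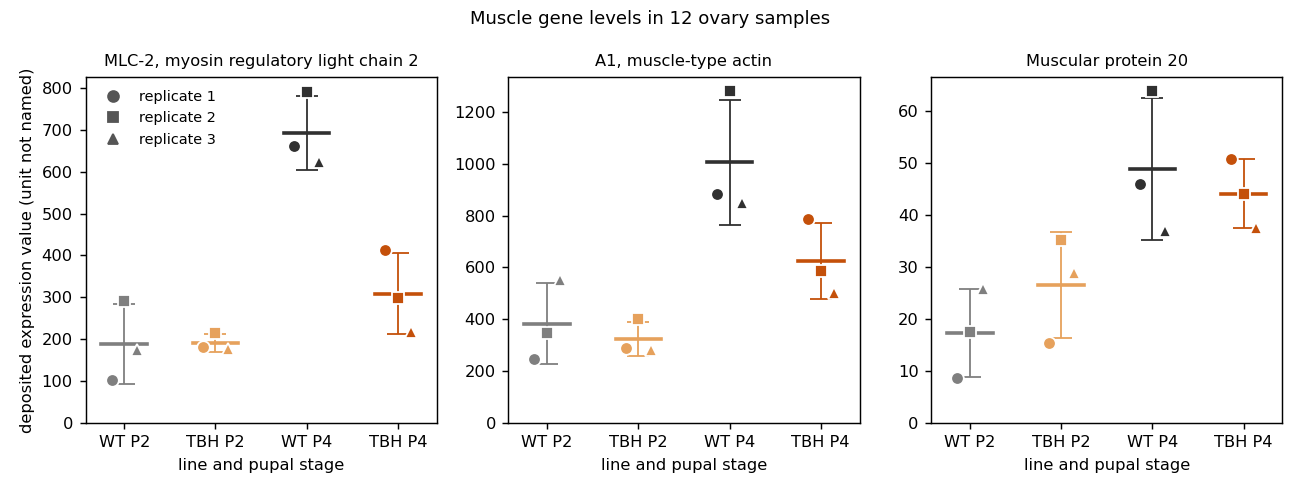
Deposited expression values (unit not named, axes from 0) of MLC-2, A1 and muscular protein 20 in the 12 ovary samples by line and stage; symbols are single samples, thick bars means and whiskers SDs of 3 samples. For MLC-2 and A1 the 3 WT P4 samples lie above all others, whereas for muscular protein 20 the WT and TBH samples at P4 overlap.

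The 2 stages follow the ovary as the pupa ages. In WT ovaries both genes rose: MLC-2 was 3.66-fold and A1 2.63-fold higher at P4. In the limma fit over all 5235 tested genes with Benjamini-Hochberg adjustment, the log2 change was 1.99 ± 0.34 (SE) for MLC-2 (adjusted p = 0.00598) and 1.44 ± 0.30 for A1 (adjusted p = 0.0227). The median log2 change of all tested genes was -0.42, so that relative to it the changes were 2.41 and 1.87. Of all tested genes, 1.01% passed in this direction, and in 4.41% the P4 samples lay above all P2 samples, as they did for both muscle genes. The MLC-2 call held without any 1 of the 6 libraries and had an adjusted p = 0.0543 with only the 6 WT samples fitted. The A1 call ended without WT P2 replicate 1 (log2 change 1.17, adjusted p = 0.0717) and without WT P4 replicate 1, 2 or 3 (1.52, 1.26 and 1.55, adjusted p = 0.0567, 0.113 and 0.0514), and also with equal ribosomal totals (1.04, adjusted p = 0.186).

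In TBH ovaries the means were higher at P4 by 1.62-fold for MLC-2 and 1.93-fold for A1, and neither passed. The limma log2 change was 0.65, with a 95% interval of -0.10 to 1.40, for MLC-2 (adjusted p = 0.539) and 0.94, with an interval of 0.27 to 1.61, for A1 (adjusted p = 0.221). Relative to the median of all genes, -0.21, these changes were 0.86 and 1.15. All 3 P4 samples lay above all 3 P2 samples for both genes, which 4.64% of tested genes showed, while 0.363% of genes passed as higher. Without TBH P4 replicate 1 the MLC-2 change was 0.42 (adjusted p = 0.942). Both genes passed with sample weights, at log2 changes of 0.89 (adjusted p = 0.0138) and 1.04 (adjusted p = 0.0134). With sample weights 135 of 5235 genes passed as higher, against 19 in the reported fit. Weighting gave less influence to samples that fit their group poorly.

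Averaged over the lines, both genes rose from P2 to P4, by a log2 change of 1.32 ± 0.24 (SE) for MLC-2 (limma adjusted p = 0.00664) and 1.19 ± 0.22 for A1 (adjusted p = 0.00622), or 1.62 and 1.49 relative to the median of all genes, -0.30. Of the tested genes, 1.59% passed as higher and 7.58% as lower. A two-sided exact permutation test with the stage labels exchanged within each line gave p = 0.005 for each gene, the smallest p that its 400 arrangements can give, and an adjusted p = 0.0525 over the 21 permutation tests made. The limma calls of both genes survived leaving out each of the 12 libraries in turn, with adjusted p reaching 0.0232 and 0.0219. With equal ribosomal totals the A1 change was 1.00 (adjusted p = 0.0593) and MLC-2 kept its call (1.13, adjusted p = 0.00423).

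The comparison of TBH with WT asks what differs with the line at a given stage. At P2 neither gene passed, where 0.821% of all tested genes passed as higher and 0.669% as lower. The log2 difference was 0.13 for MLC-2, with a 95% interval of -0.62 to 0.88, and -0.18 for A1, with an interval of -0.85 to 0.49 (limma adjusted p = 1.0 for each). The data thus leave room for a difference anywhere inside these intervals. The TBH P2 samples fell within the range of the WT P2 samples for both genes. The sign turned without WT P2 replicate 1 for MLC-2 (-0.24) and without WT P2 replicate 3 for A1 (0.12). It turned too for MLC-2 with equal ribosomal totals (-0.024).

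At P4 MLC-2 in TBH was at 0.446 times its WT mean and A1 at 0.622 times. Neither passed: the limma log2 difference was -1.20 ± 0.34 (SE; unadjusted p = 0.0046, adjusted p = 0.117) for MLC-2 and -0.68 ± 0.30 (unadjusted p = 0.045, adjusted p = 0.408) for A1. The median of all genes shifted by 0.18 the other way, and relative to it the differences were -1.38 and -0.86. All 3 TBH samples lay below all 3 WT samples for both genes, as in 6.72% of tested genes, and 0.802% of genes passed as lower. At an unadjusted p of 0.05, 4.32% of genes were lower. A two-sided exact permutation test of 3 samples against 3 gave p = 0.1, the smallest it can give, for each gene. MLC-2 passed with sample weights (-0.90, adjusted p = 0.0172), and without TBH P4 replicate 3 it was at -0.97 (adjusted p = 0.352). With sample weights 202 of 5235 genes passed as lower, against 42 in the reported fit. With equal ribosomal totals the A1 difference was -0.42 (adjusted p = 0.845). In bulk tissue, fewer cells of a type and less RNA per cell cannot be told apart.

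Whether the line difference itself changed between the stages was tested as an interaction. For MLC-2 the line difference was lower at P4 than at P2 by a log2 value of -1.33 ± 0.48 (SE, limma unadjusted p = 0.018, adjusted p = 0.717). An exact permutation test with the line labels exchanged within each stage gave p = 0.055 (adjusted over 21 tests p = 0.170). For A1 the value was -0.50 ± 0.43 (limma adjusted p = 1.0, exact permutation p = 0.37). The null of this permutation test is no line difference at either stage, so alone it cannot decide if the difference changed between stages. Leaving out WT P2 replicate 1 gave -0.23 for A1, leaving out replicate 3 of that group gave -0.81, and leaving out WT P4 replicate 2 gave -0.31. The A1 value was -0.17 with sample weights and -0.078 with equal ribosomal totals. Of all tested genes, 0.172% passed as lower in the limma interaction. The stage rise in WT is therefore not shown to differ from that in TBH for either gene. Averaged over the stages, the line difference was -0.54 ± 0.24 for MLC-2 and -0.43 ± 0.22 for A1 (limma adjusted p = 0.368 and 0.428), where 1.28% of genes passed as lower. Over 22 alternatives these ranged from -0.72 to -0.23 and from -0.57 to -0.28, with MLC-2 at -0.35 when WT P2 replicate 2 was left out and A1 at -0.28 when replicate 3 of that group was.

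**Figure D2:**
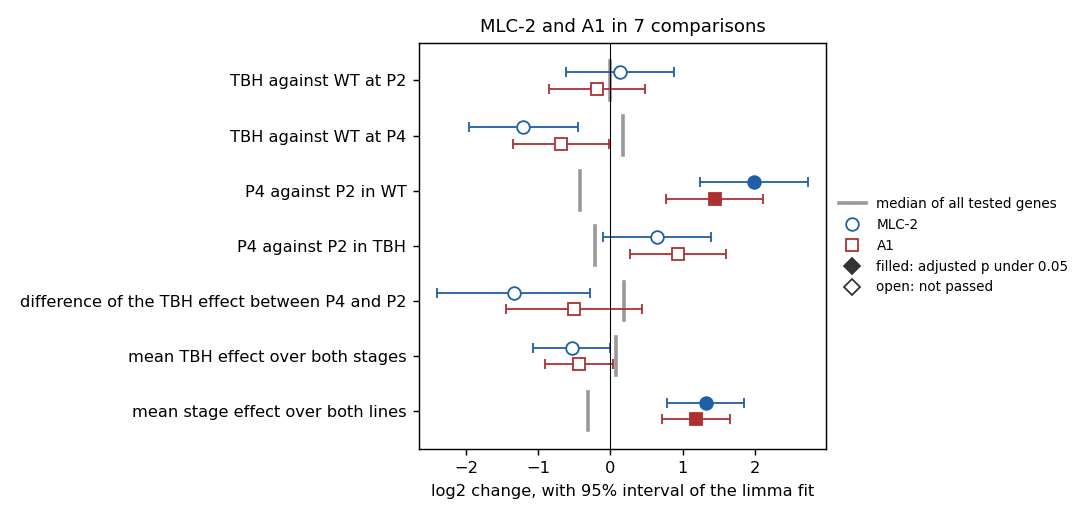
Log2 changes of MLC-2 (circles) and A1 (squares) in 7 comparisons from the limma fit, with 95% intervals; filled symbols passed an adjusted p of 0.05 and grey bars mark the median change of all tested genes. Only the P4 against P2 comparison in WT and the mean stage effect are filled, for both genes.

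The ratio of A1 to MLC-2 within a sample does not depend on how samples are scaled. It stood at 2.41, 1.20 and 3.20 in the WT P2 samples and at 1.60, 1.87 and 1.60 in the TBH P2 samples. At P4 it stood at 1.33, 1.62 and 1.37 in WT and at 1.91, 1.97 and 2.31 in TBH. The WT P2 samples spanned a wider range than all other 9 samples together, and at P4 the TBH samples lay above the WT samples. The log2 ratio was 0.52 higher in TBH than in WT at P4 (exact permutation p = 0.1, the smallest 3 against 3 can give) and 0.31 lower at P2, written as -0.31 (p = 0.6). The difference between these line effects was 0.83 (exact permutation p = 0.085, adjusted over 21 tests p = 0.170). This permutation test too has no line difference at either stage as its null, so its p does not measure a change between stages. The difference of 0.83 ranged with single libraries. Without WT P2 replicate 3 it was 0.53 (exact permutation p = 0.235). Without WT P2 replicate 2 it was 1.24 (unadjusted exact permutation p = 0.005, the smallest that test can give).

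**Figure D3:**
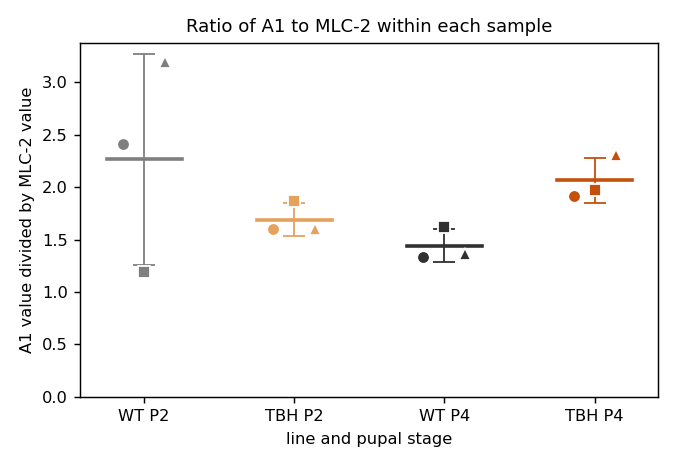
A1 value divided by MLC-2 value in each of the 12 samples (axis from 0); symbols are single samples (circle, square and triangle for replicates 1, 2 and 3), thick bars means and whiskers SDs of 3 samples. The WT P2 samples run from 1.20 to 3.20, and at P4 the TBH samples, 1.91 to 2.31, lie above the WT samples, 1.33 to 1.62.

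Among other rows naming a muscle filament protein, 3 hold tropomyosin, troponin or a further myosin light chain in their description, and all were near or at 0. Tropomyosin-1 (BGIBMGA001587) was listed at 0 in all 12 samples. Troponin C 25D (BGIBMGA008861), a calcium sensor of the thin filament, was at 0 in 8 samples and reached 0.95 at most. Myosin light polypeptide 9 isoform 2 (BGIBMGA012961), named after a light chain of vertebrate smooth muscle, was at 0 in all 6 P2 samples, at 0.34, 0 and 0 in WT at P4 and at 1.30, 1.02 and 0.82 in TBH at P4. It lay in the opposite order to MLC-2 at P4, at values that the filter on low values left out of the reported test. Without that filter it passed as higher in TBH than in WT at P4, as did 47 of 11209 genes, at these values near 0. The label of muscle markers thus rests on MLC-2, A1 and the row described next, and no listed row tells ovariole sheath muscle from other muscle or gives the cells that carried these transcripts.

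Muscular protein 20 (BGIBMGA001201), whose fly namesake Mp20 is a calponin-like protein of muscle, is a further row of the muscle list. The list held it as Mp20, and the spelling used in the table was added after the table was seen. It stood at 8.71, 17.6 and 25.7 in WT and 15.4, 35.3 and 28.9 in TBH at P2, and at 45.95, 63.9 and 36.9 in WT and 50.8, 44.2 and 37.5 in TBH at P4. Every P4 sample lay above every P2 sample, and the lines overlapped at each stage. It rose in the mean over both lines (log2 change 1.15 ± 0.29, SE, limma adjusted p = 0.0318), a call that ended in 8 of 22 alternatives (adjusted p up to 0.180). In WT alone it missed the threshold (1.53 ± 0.41, adjusted p = 0.0598). In TBH against WT at P4 its log2 difference was -0.12, with a 95% interval of -1.01 to 0.77, and whether this differs from that of MLC-2 or A1 was not tested. Of the 6 rows of the muscle list, 3 were tested, and in the mean stage effect all 3 rose, with a median log2 change of 1.19 against -0.30 for all tested genes, of which 1.59% passed as higher. MLC-2 and A1 are themselves among these 3 rows.

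Of the 3 rows of the general actin cytoskeleton 2 were tested, and 1 of them, ARP1, fell with stage. In the mean over both lines, 7.58% of all tested genes passed as lower. ARP1 (BGIBMGA012151), an actin-related protein of the dynactin complex that links cargo to dynein, stood at 175 to 197 in WT and 179 to 222 in TBH at P2, and at 119 to 129 and 128 to 149.9 at P4. It fell in the mean over both lines (log2 change -0.57 ± 0.12, limma adjusted p = 0.0127), or by -0.26 relative to the median of all genes. With quantile normalization the change was -0.18 and did not pass (adjusted p = 0.444). Profilin (BGIBMGA002981), which feeds actin monomers to growing filaments, stood at 743, 260.3 and 405 in WT at P2 and 147, 156 and 129 at P4. In TBH it stood at 439, 496 and 265 at P2 and 181, 117 and 501 at P4, where replicate 3 was above the others. It did not pass in the mean over both lines (-1.19 ± 0.35, adjusted p = 0.0591). Of the 4 tubulin rows, the subunits of microtubules, 0 passed in limma in any of the 7 comparisons. The alpha chain row among them, TUA1, had a mean stage change of -0.12 ± 0.19.

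RefSeq's gene table of the silkworm (assembly ASM3026992v2) lists the actin genes A1, A2, A3 and A4 and one MLC-2. The deposited table has 1 row named A1, 1 named MLC-2 and 0 named A2, A3 or A4. Actin genes are near-identical in their coding sequence, so reads of other actin genes may have been shared with A1, and its level is uncertain for that reason. The symbols matched, whereas 0 gene IDs of the deposited table occur in the RefSeq table.

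None of the tested fat body and hemolymph rows passed as higher with stage, though some could hardly do so under the filter, and the eggshell marker VMP23 rose. The fat body and hemolymph list had 15 rows, of which 9 were tested. Its summed values ran from 134 to 289 in WT and 126 to 273 in TBH at P2, and from 93.1 to 161 and 124 to 242 at P4. In the mean stage effect 0 of the list's 9 tested rows rose and 7 fell, where 1.59% of all tested genes passed as higher and 7.58% as lower. SP1, SP2, PP-BP, PPBP2 and BGIBMGA004397 reached 1 in P2 samples only, so the filter admitted them through the stage where they were high. These rows could hardly have been called as rising, so the count does not measure the direction of the list. The summed muscle rows ran from 359 to 752 in WT and 486 to 650.5 in TBH at P2, and from 1510 to 2138 and 759 to 1252 at P4. In the same effect 1 of the 3 tested eggshell rows rose, VMP23, by a log2 change of 6.14, larger than that of MLC-2 or A1. The 1 tested row of the germ line list did not pass. That row is VIG, described as a vasa intronic protein. It was matched through the word vasa and is not vasa itself, so it is no readout of the germ line.

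The genes whose log2 values followed the muscle genes most closely over the 12 samples were mostly without a name. MLC-2 and A1 themselves correlated at a Pearson r of 0.90 over the 12 samples, and at 0.60 for the deviations from the 4 group means. For comparison, the median r of all tested genes with MLC-2 was -0.42. A1 ranked the 11th most similar gene to MLC-2, and MLC-2 the 6th most similar to A1. These correlations are a description: samples of a group share their line and stage, and both values come from 1 library. The 5 genes closest to MLC-2 were BGIBMGA007697 (r = 0.97), BGIBMGA012166 (0.95), BGIBMGA002846 (0.95), BGIBMGA003800 (0.93) and BGIBMGA005812 (0.93). The 5 closest to A1 were BGIBMGA014227 (0.95), BGIBMGA012166 (0.93), BGIBMGA013554 (0.93), BGIBMGA007697 (0.91) and BGIBMGA002846 (0.90), so that 3 genes stood in both lists. None of these 7 genes has a name or product in the table.

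BGIBMGA002846 was one of the 3 genes near both muscle genes. It stood at 67.1, 167 and 116 in WT and 80.3, 72.5 and 55.95 in TBH at P2, and at 434, 521 and 540.5 in WT and 216, 187 and 108 in TBH at P4. For this gene the TBH P2 samples and the WT P2 samples overlapped, and the WT P4 samples lay above all others. BGIBMGA012166 ranged from 31.5 to 48.3 in WT and 31.7 to 33.9 in TBH at P2, and from 105.7 to 134 and 55.01 to 79.0 at P4. BGIBMGA005812, a neighbour of MLC-2 alone, stood at 5543 ± 406 in WT and 2137 ± 522 in TBH there. Its log2 difference was -1.40 ± 0.22 (limma adjusted p = 0.00556), and the call held in all 17 alternatives. BGIBMGA002846 also passed at P4 (-1.59 ± 0.34, adjusted p = 0.0374), a call that ended in 11 of 17 alternatives. Genes selected for following MLC-2 must lie in its direction, so these values are no independent support for its P4 difference.

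Named genes followed further down. Closest to MLC-2 were the small nucleolar RNA U3 (r = 0.92), which guides ribosomal RNA processing, the small heat shock protein gene HSP20.4 (0.90), a histone H4 gene (BGIBMGA009647, 0.90), the RNA of RNase MRP (0.87) and a galectin (BGIBMGA014456, 0.86). Closest to A1 were a mitochondrial aldehyde dehydrogenase (BGIBMGA010403, 0.87), VMP23 (0.87), U3 (0.85), muscular protein 20 (0.84) and the putative cuticle protein BMORCPR39 (0.83). HSP20.4 stood at 2249, 4626 and 1732 in WT at P2 and 5827, 7214 and 8669 at P4. In TBH it stood at 2020, 1973 and 1721 at P2 and 4102, 4213 and 2628 at P4, so its group means stood in the same order as those of A1. U3 and histone H4 are multi-copy genes, so their levels are uncertain.

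**Figure D4:**
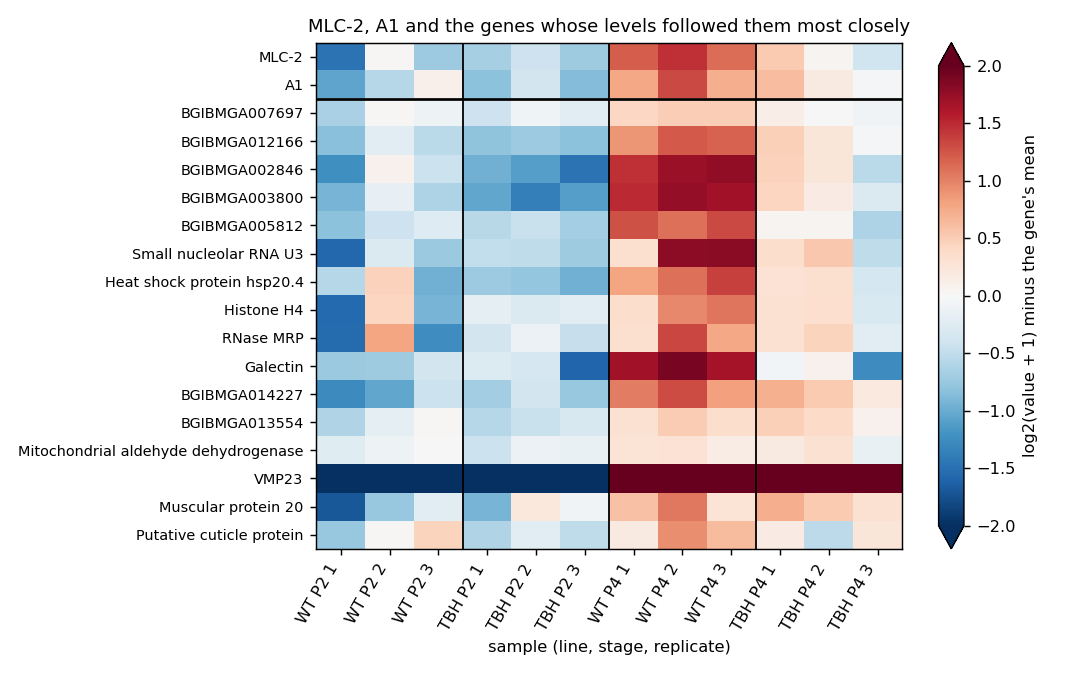
Log2(value + 1) minus the gene's mean over the 12 samples, for MLC-2, A1 and the genes with the highest correlation to them; columns are samples, and the colour scale ends at 2 log2 units in each direction, which VMP23 passes. The WT P4 columns are red in every row, and in TBH P4 the colours are paler for most rows, MLC-2 and A1 among them.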

How the data were processed

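The authors deposited 1 table with 12 sample columns and 4 columns of group means, holding a normalized expression signal that the authors computed from the reads with an unnamed unit and gave to 2 decimals. Aligner, build and annotation are not stated, and the submitters' processing notes list only Cufflinks and DESeq2, without role or version. Both members and the gene lists were chosen with earlier results of these data known.

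Values entered as log2(value + 1), unscaled. A gene was tested if 3 or more samples reached 1, which left 5235 genes; the pseudocount understates changes of low genes. limma 3.58.1 in R 4.3.3 (lmFit, contrasts.fit, eBayes with trend) fitted 4 group means over the 12 samples, with Benjamini-Hochberg adjustment across tested genes for each contrast (threshold 0.05). The design foresaw edgeR for counts, which these values are not. Folds are ratios of group means. Permutation tests were exact and two-sided, adjusted over 21. The fit was tested on simulated data. Named were the members, rows with the filament proteins in their description, listed muscle and cytoskeleton rows, and for each member the 5 genes, and the 5 named genes, of highest Pearson correlation. List rows were matched by name or product. Alternatives were other scalings, filters, pseudocounts, weights, sample sets and the replicate block.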

Additional observations from a re-analysis of the deposited data

How the results depend on the processing

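Of 268 alternative values of MLC-2 and A1 in the comparisons, 253 kept direction and side of the threshold. The sign of the P2 line difference turned for MLC-2 with equal ribosomal totals (-0.024), an alternative chosen after seeing the data; leaving out single libraries gave -0.24 to 0.51 for MLC-2 and -0.46 to 0.12 for A1. In WT, the stage change did not pass with only the groups compared (MLC-2 1.99, A1 1.44), nor for A1 without a filter (1.44) or with equal ribosomal totals (1.04), and leaving out single libraries gave 1.17 to 1.75 for A1. With equal ribosomal totals the mean stage change of A1, 1.00, did not pass. Sample weights added calls for MLC-2 at P4 (-0.90) and for the TBH stage change (MLC-2 0.89, A1 1.04). That setting called 202 genes lower at P4 and 135 higher in TBH over stage, against 42 and 19 in the reported fit. For the log2 ratio, leaving out single libraries gave 0.53 to 1.24 for the interaction, -0.10 to 0.25 for the mean line effect and -0.33 to 0.022 for the mean stage effect. The cause of these changes was not tested.

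Of the 5 filament rows, 2 passed in WT over stage in the reported fit, 1 without a filter or with equal ribosomal totals, 0 with only the groups compared, and 1 to 2 without single libraries. In TBH over stage 0 passed, 1 without a filter and 2 with sample weights, and at P4 between lines 0 passed, 1 in each of these settings. In the mean stage effect 2 passed, 1 with equal ribosomal totals and up to 3 over all alternatives. Genes passing there as higher numbered 83 of 5235 in the reported fit and 35 of 5235 with equal ribosomal totals. Of the 5 closest genes, Spearman's correlation kept 2 for MLC-2 and 3 for A1, and correlation of deviations from group means kept 0 and 1.

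All genes called numbered 78 at P2 between lines (22 to 137 over alternatives), 101 at P4 (44 to 459), 215 in WT over stage (81 to 1190), 89 in TBH (54 to 933), 15 in the interaction (4 to 33), 170 in the mean line effect (73 to 371) and 480 in the mean stage effect (177 to 1706). Quantile normalization moved the higher and lower calls from 53 and 162 to 111 and 85 in WT over stage, from 19 and 70 to 38 and 55 in TBH, from 59 and 42 to 60 and 79 at P4, from 103 and 67 to 89 and 95 in the mean line effect and from 83 and 397 to 173 and 166 in the mean stage effect.

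The deviations of same-numbered samples correlated from -0.18 to 0.24 over 18 pairs, and the highest was above the limit of 0.1 used for this check. The labels do not say what the replicate number marks, so this range cannot decide if the numbers pair the samples. With the replicate block the WT stage change was 1.99 for MLC-2 (limma adjusted p = 0.0105) and 1.44 for A1 (adjusted p = 0.05, just under the threshold), and no call of these genes changed. Depth is unknown, and 3 samples a group limit the precision.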
